A study of Homo sapiens with 9 samples.

Results

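The 46 genes described here encode the machinery that copies DNA in S phase, and their RNA was followed in TC32 cells, a long-established line of Ewing sarcoma. They were taken by gene name from gene tables of 58233 IDs, each name matched 1 ID annotated as protein coding, and all 46 were among the 17880 genes with enough counts to test. The 9 libraries of polyadenylated RNA formed 3 groups of 3. Inhibitor cells received Wnt3a, a ligand of the Wnt/β-catenin pathway, and after 4 h SB-505124, an inhibitor of the kinases ALK4, ALK5 and ALK7 through which TGF-β and activin signal, for the last 24 h. Wnt3a cells received the ligand at the same time and DMSO in place of the inhibitor. Vehicle cells received PBS in place of Wnt3a and then DMSO. No group received SB-505124 without Wnt3a, all cells grew in medium with fetal bovine serum, and the data come from 1 cell line. The labels do not say whether Wnt3a was left on during the later incubation. Nor do they say that replicates were grown separately, so every p-value rests on a spread between libraries that may be only technical.

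A cell prepares an origin of replication in G1 by loading the MCM2 to MCM7 ring onto DNA with the origin recognition complex, CDC6 and CDT1. In S phase the kinase CDC7, with its activator DBF4, and the loading factors add CDC45 and the GINS complex, and the ring becomes the replicative helicase. Primase, the replicative polymerases and the PCNA clamp then build the new strands, and FEN1 and LIG1 finish the lagging strand. Many of these genes are classic targets of E2F transcription factors and are expressed most in cells that enter S phase. Ewing sarcoma lines are known for high replication stress. In bulk RNA, fewer cells in S phase and less RNA per cell cannot be told apart.

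Total expected counts were 28844348 to 37540072 in inhibitor libraries, 36903919 to 42976799 in Wnt3a libraries and 34348339 to 38637007 in vehicle libraries. The lowest count of any replication gene in any library was 126, so counting error is small beside the differences described. The TMM scaling factors were 0.876 to 0.914 in inhibitor libraries, against 1.02 to 1.10 in Wnt3a libraries and 1.04 to 1.07 in vehicle libraries, so levels in CPM (counts scaled to the TMM-corrected library size) and in TPM (scaled to transcript length and library) differ in scale between groups. The 8 Ewing markers, CD99, NKX2-2 and NR0B1 among them, were all tested and summed to 2380 to 3173 TPM in inhibitor libraries, against 3392 to 4081 TPM in Wnt3a libraries and 3579 to 4395 TPM in vehicle libraries. CD99 and CAV1 made up most of that sum. NKX2-2 was at 18.6 to 23.44 TPM in inhibitor libraries, 41.71 to 61.6 with Wnt3a and 64.01 to 73.68 with vehicle. CD99, NR0B1, STEAP1 and LIPI were also lowest with the inhibitor, while FLI1, CAV1 and PAX7 overlapped between groups. The 5 fibroblast markers, all tested, summed to 45.4 to 52.5 TPM in inhibitor libraries, against 65.8 to 99.9 TPM in Wnt3a libraries and 37.0 to 39.0 TPM in vehicle libraries. They did not move together. COL1A1 was at 0.66 to 1.15 TPM in inhibitor libraries, 15.56 to 28.18 with Wnt3a and 4.98 to 11.41 with vehicle, and COL1A2 was also lowest with the inhibitor. LUM was at 35.07 to 36.74 TPM in inhibitor libraries, 29.4 to 41.55 with Wnt3a and 17.26 to 18.84 with vehicle. DCN and PDGFRA overlapped between groups. The leukocyte list (1 of 5 markers tested), the endothelial list (1 of 4) and the epithelial list (3 of 4) summed to at most 2.61 TPM in any library, and CD3E, which defines T cells, was at 0 in every library. What part any of these differences had in the results was not tested.

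Inhibitor replicate 1 stood apart from the other inhibitor libraries in these genes. It had the lowest CPM of the 3 inhibitor libraries for 42 of the 46 genes (91.3%), against 42.4% of all genes tested. The median log2 ratio of the 46 genes to the Wnt3a mean was -0.81, -0.19 and -0.27 in inhibitor replicates 1, 2 and 3. The median of all genes lay between -0.07 and -0.06 in each of them. TMM scaling brings libraries to a common level, so that median cannot show whether inhibitor replicate 1 was typical in other genes. Inhibitor replicate 1 was the lowest for more of all genes tested (42.4%) than inhibitor replicates 2 (27.9%) and 3 (29.7%). Scaled to sampling noise, it differed from replicates 2 and 3 by 62.1 and 64.2, against 9.78 between those (chi-square over degrees of freedom). This measure also set vehicle replicate 2 apart, by 40.5 and 37.1 from vehicle replicates 1 and 3, against 7.19 between those. Pairs of Wnt3a libraries differed by 21.5 to 40.6. The 46 genes together held 0.275%, 0.413% and 0.389% of the counts in inhibitor libraries, against 0.568%, 0.520% and 0.484% in Wnt3a libraries and 0.524%, 0.581% and 0.532% in vehicle libraries. The lowest share was that of inhibitor replicate 1, and the inhibitor libraries did not overlap either other group. For the 46 genes against Wnt3a cells, calls that changed and values that moved by over 1.5 times without that library are given with and without it below.

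With SB-505124, the replication genes were lower in part and unevenly. Against Wnt3a cells, 23 of 46 genes fell (50%) where 25.9% of all genes tested fell, and 4 genes rose (8.70%) where 24.5% of all genes rose, by edgeR's quasi-likelihood test at an adjusted p threshold of 0.05. The other 19 genes did not pass. At least a 2-fold fall was seen in 13 genes (28.3%, against 15.0% of all genes), and only CDT1 rose at least 2-fold (2.17%, against 7.32%). The CPM of all inhibitor libraries lay below all Wnt3a libraries for 24 genes (52.2%, against 30.3% of all genes) and above them for 5 (10.9%, against 27.8%). The median log2 fold change was -0.39 over the 46 genes and -0.06 over all genes tested. The largest falls were those of FEN1, UHRF1, POLE2, GINS2 and CLSPN, and the rises were those of CDT1, ORC1, RRM1 and DBF4. Without inhibitor replicate 1 there were 22 falls, against 27.0% of all genes, and 8 rises, against 25.1%, and the median was -0.22 over the 46 genes and -0.08 over all genes. The median of the 46 genes was then 0.14 below that of all genes, against 0.34 with all libraries. The genes that rose only then were LIG1 (0.45 in log2), TYMS (0.43), PRIM1 (0.27) and CHAF1A (0.22), and POLE no longer passed (edgeR adjusted p = 0.0674). Scaling by library totals alone moved the median of all genes by -0.25. It gave 26 falls and 2 rises among the 46 genes, with 35.9% of all genes lower and 15.8% higher. The median of the 46 genes then was -0.65, which lay 0.34 below that of all genes, as it did with TMM scaling. A change of library scaling shifts every gene by nearly the same amount, so this distance could hardly have changed.

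**Figure D1:**
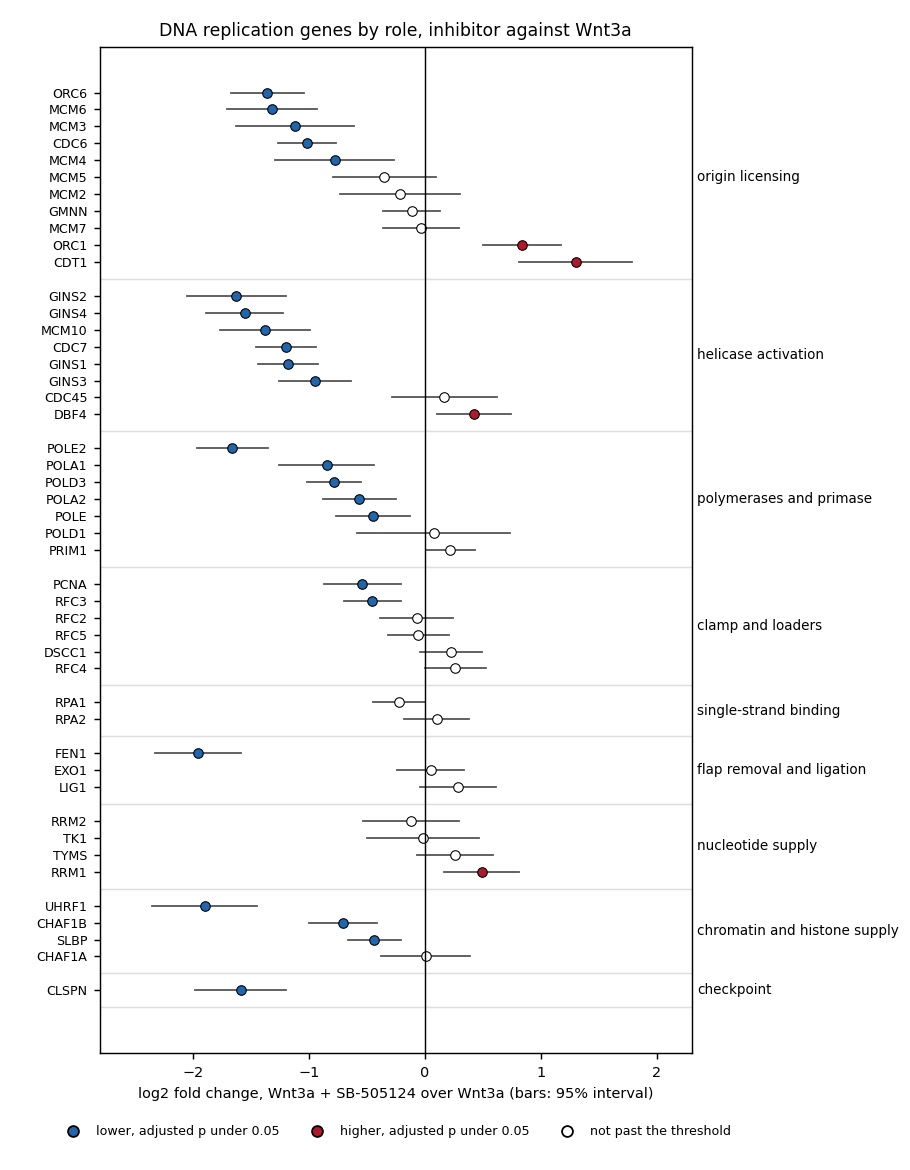
The log2 fold change of inhibitor over Wnt3a cells (x axis) is drawn for each of the 46 genes, grouped by role, with bars for the 95% interval of the edgeR fit. The 23 genes that fell reach -1.96 (FEN1), and the 4 that rose reach 1.30 (CDT1).

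Promoters are shown because 13 of the 40 genes with a promoter here carry letters that E2F factors are known to bind. RefSeq promoters (GRCh38.p14, 250 bases before to 50 bases after each start) were found by symbol for 40 of the 46 genes, all but DSCC1, RPA2, POLD3, MCM5, MCM4 and GINS4. The E2F-type letters TTTCGCGC or TTTGGCGC, on either strand, stood in 13 of the 40 genes (32.5%), against 1.40% of the 27305 symbols in the whole table. They were in 9 of 20 genes that fell (45%), 0 of 4 that rose and 4 of 16 that did not pass (25%). CCAAT, the letters of the NF-Y box, stood on either strand in 23 of the 40 genes (57.5%), against 39.7% of all symbols. TTTGAA, a cell cycle element (CHR) of genes expressed late in the cycle, stood in 2 of the 40 (5%), DBF4 and RRM1, against 18.2%. The symbols of the whole table were not limited to protein-coding genes or to genes tested here, so these shares are of an unlike set. A match is a run of letters and no evidence of binding. Whether the letters go with the falls was not tested, and their share among all genes that fell was not computed. The 4 largest falls with an E2F-type match were those of UHRF1, POLE2, MCM6 and GINS1, and capitals mark the match in each promoter.
UHRF1 (chr19:4909894-4910193, plus strand): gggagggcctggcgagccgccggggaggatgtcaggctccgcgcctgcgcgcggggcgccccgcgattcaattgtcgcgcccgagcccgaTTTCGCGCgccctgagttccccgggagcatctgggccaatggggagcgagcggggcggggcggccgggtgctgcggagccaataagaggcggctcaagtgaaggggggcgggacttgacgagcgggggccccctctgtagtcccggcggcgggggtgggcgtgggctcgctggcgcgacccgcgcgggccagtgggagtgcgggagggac
POLE2 (chr14:49688165-49688464, minus strand): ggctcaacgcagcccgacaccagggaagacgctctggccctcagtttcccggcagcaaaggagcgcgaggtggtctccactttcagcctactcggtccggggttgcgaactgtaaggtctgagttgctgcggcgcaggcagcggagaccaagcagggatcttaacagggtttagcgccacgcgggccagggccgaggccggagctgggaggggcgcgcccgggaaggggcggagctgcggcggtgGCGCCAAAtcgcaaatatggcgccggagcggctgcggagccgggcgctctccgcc
MCM6 (chr2:135876394-135876693, minus strand): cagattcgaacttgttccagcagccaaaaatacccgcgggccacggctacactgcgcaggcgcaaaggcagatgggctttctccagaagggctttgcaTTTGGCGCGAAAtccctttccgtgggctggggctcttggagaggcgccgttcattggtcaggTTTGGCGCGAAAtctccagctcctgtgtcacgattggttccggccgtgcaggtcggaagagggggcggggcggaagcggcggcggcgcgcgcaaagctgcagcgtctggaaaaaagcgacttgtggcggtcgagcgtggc
GINS1 (chr20:25407423-25407722, plus strand): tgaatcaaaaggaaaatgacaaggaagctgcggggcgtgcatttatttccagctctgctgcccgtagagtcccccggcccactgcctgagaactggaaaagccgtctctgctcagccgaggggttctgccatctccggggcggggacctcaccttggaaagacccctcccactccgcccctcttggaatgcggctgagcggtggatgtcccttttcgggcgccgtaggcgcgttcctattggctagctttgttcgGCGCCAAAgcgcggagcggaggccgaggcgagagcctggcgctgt

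The first base of the match lay 160 bases before the annotated start in UHRF1 and 5 bases before it in POLE2, and 5 bases after it in GINS1. In MCM6 a pair of overlapping matches on opposite strands began 152 and 148 bases before the start, and another such pair 90 and 86 bases before it. The other 9 genes are shown by the match with its flanks, in capitals as above. CDC6, MCM3, POLA1, POLA2 and POLE were among the genes that fell.
CDC6: gccattcggaTTTGGCGCgagcgcggct
MCM3: gttcggaagtTTTCGCGCcggggtggag
POLA1: tcatcacaggGCGCCAAAcgcgcgtccg
POLA2: tggctcccggTTTCGCGCatgcgtgcac
POLE: gggtgggagcGCGCCAAAtttctcccct

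MCM2, MCM7, GMNN and EXO1, which did not pass the test, carry the same letters.
MCM2: gtgaaccactTTTCGCGCGAAAcctggt
MCM7: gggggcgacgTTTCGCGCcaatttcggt
GMNN: ctgggtcggtTTTGGCGCgctctcactt
EXO1: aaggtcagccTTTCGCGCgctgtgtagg

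In MCM2 the capitals cover a pair of overlapping matches on opposite strands, which began 2 and 6 bases after the start.

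Of the 11 origin licensing genes, 5 fell with the inhibitor, 2 rose and 4 did not pass, with a median log2 fold change of -0.35. The shares over all genes, 25.9% lower and 24.5% higher, are the background of this and each later count by role. ORC6, a subunit of the origin recognition complex, had 13.0, 13.5 and 13.1 CPM in inhibitor libraries, against 37.8, 35.6 and 28.3 CPM in Wnt3a libraries and 33.5, 40.6 and 31.1 CPM in vehicle libraries. The inhibitor libraries lay close together and below all others, and ORC6 fell to 0.390 of its Wnt3a level (log2 fold change -1.36, SE 0.141, edgeR adjusted p = 4.71e-05). ORC1, the largest subunit of the same complex, moved the other way, with 49.7, 75.1 and 64.5 CPM in inhibitor libraries, against 38.3, 31.7 and 36.2 CPM in Wnt3a libraries and 37.4, 39.7 and 45.4 CPM in vehicle libraries. Each inhibitor library exceeded every other library, and the log2 fold change was 0.84 (SE 0.152, edgeR adjusted p = 0.00127). The genes lie on different chromosomes, ORC1 at 52372829 to 52404459 of chromosome 1 and ORC6 at 46689643 to 46698394 of chromosome 16 (hg38).

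CDT1, which brings the MCM ring to the origin, had 84.2, 153 and 167 CPM in inhibitor libraries, against 48.6, 51.4 and 64.2 CPM in Wnt3a libraries and 69.8, 74.5 and 73.4 CPM in vehicle libraries. The inhibitor libraries were the highest, and the Wnt3a libraries lay below the vehicle libraries without overlap. CDT1 rose with the inhibitor by 1.30 in log2 over Wnt3a cells (SE 0.220, edgeR adjusted p = 0.000831) and by 0.89 over vehicle cells (SE 0.218, edgeR adjusted p = 0.00668). Inhibitor replicate 1 was the lowest of the 3 here too, and without it the log2 fold change over Wnt3a was 1.55. The CDT1 gene (ENSG00000167513.8) lies at 88803213 to 88809258 of chromosome 16 on the plus strand. GMNN encodes geminin, the inhibitor of CDT1, and had 34.2, 41.1 and 35.9 CPM in inhibitor libraries, against 44.5, 37.4 and 38.3 CPM in Wnt3a libraries and 42.0, 47.0 and 44.3 CPM in vehicle libraries. The inhibitor libraries overlapped the Wnt3a libraries, and GMNN did not pass (log2 fold change -0.11, 95% interval -0.36 to 0.13, and -0.05 without inhibitor replicate 1). GMNN passed as lower when scaled by library totals (-0.36, edgeR adjusted p = 0.0174) and on the TPM scale (-0.46, limma adjusted p = 0.00398 with a pseudocount of 1). CDC6, the ATPase that loads the ring together with CDT1, had 37.6, 43.01 and 45.0 CPM in inhibitor libraries, against 97.4, 75.7 and 81.0 CPM in Wnt3a libraries and 86.8, 82.7 and 87.1 CPM in vehicle libraries. All 3 inhibitor libraries were below all others, and the level of CDC6 was 0.495 of that in Wnt3a cells (log2 fold change -1.01, SE 0.113, edgeR adjusted p = 7.11e-05).

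Of the 6 subunits of the MCM ring, which are present in equal numbers in the complex, 3 fell and 3 did not pass. MCM6 had 60.9, 107 and 90.7 CPM in inhibitor libraries, against 238, 198 and 208 CPM in Wnt3a libraries and 221, 216 and 220.2 CPM in vehicle libraries. Every inhibitor library was below every other library, and MCM6 fell by 1.32 in log2 (SE 0.175, edgeR adjusted p = 0.000196). MCM3 had 67.4, 142 and 124 CPM in inhibitor libraries, against 273, 242 and 211 CPM in Wnt3a libraries and 241, 285 and 251.3 CPM in vehicle libraries. The same was true of MCM3, and the log2 fold change was -1.12 (edgeR adjusted p = 0.00256). MCM4 had 143, 322 and 263 CPM in inhibitor libraries, against 441, 425 and 379.7 CPM in Wnt3a libraries and 401, 451 and 421 CPM in vehicle libraries. Its inhibitor libraries were also below all others. MCM4 fell by 0.78 in log2 (edgeR adjusted p = 0.0177), and the call was lost without Wnt3a replicate 1, at an edgeR adjusted p of 0.0541. Without inhibitor replicate 1 the log2 fold change of MCM4 was -0.50 (edgeR adjusted p = 0.00461).

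MCM2, MCM5 and MCM7 did not pass against Wnt3a. MCM2 had 116, 257 and 226 CPM in inhibitor libraries, against 243, 220.1 and 232 CPM in Wnt3a libraries and 239.6, 285 and 263 CPM in vehicle libraries. Inhibitor replicate 1 was far below the other inhibitor libraries, which lay within or near the range of the other groups, and the log2 fold change was -0.21 (95% interval -0.73 to 0.30, and 0.07 without inhibitor replicate 1). MCM5 had 102, 179.7 and 166 CPM in inhibitor libraries, against 208, 194 and 169 CPM in Wnt3a libraries and 193, 260.3 and 200.5 CPM in vehicle libraries. Its inhibitor libraries overlapped the Wnt3a libraries, with a log2 fold change of -0.35 (95% interval -0.79 to 0.09, and -0.13 without inhibitor replicate 1), and MCM5 passed as lower when scaled by library totals (log2 fold change -0.61, edgeR adjusted p = 0.0282). MCM7 had 275, 406 and 375 CPM in inhibitor libraries, against 399, 360.0 and 323 CPM in Wnt3a libraries and 368, 444 and 379 CPM in vehicle libraries. The groups overlapped, and the log2 fold change of MCM7 was -0.03 (95% interval -0.36 to 0.30, and 0.12 without inhibitor replicate 1). On the TPM scale, MCM7 passed as lower (log2 fold change -0.44, limma adjusted p = 0.0417 with a pseudocount of 1). MCM2 and MCM7 overlap exons of opposite-strand genes, 1113 bases with AC023593.1 in MCM2 and 392 bases with AP4M1 in MCM7. How the counting treated strand is not given in the sources used here, so those counts are uncertain to that extent.

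Levels of different subunits were compared per transcript length, in TPM. The 6 subunits summed to 377, 731 and 631 TPM in inhibitor libraries, against 1109, 1106 and 941 TPM in Wnt3a libraries and 990, 1155 and 1034 TPM in vehicle libraries. The inhibitor libraries did not overlap the others, in this sum or in the TPM of any of the 6 subunits, MCM2, MCM5 and MCM7 included, though MCM7 only by a narrow margin. The share of all genes without overlap in TPM was not computed. With log2(TPM + 1) the median of all genes against Wnt3a was itself -0.23, against -0.06 with TMM, and 35.5% of all genes were lower. In CPM the inhibitor libraries of MCM2, MCM5 and MCM7 overlapped the Wnt3a libraries. MCM6 made up 5.62% ± 0.188 of that sum in inhibitor cells, 10.8% ± 0.506 in Wnt3a cells and 10.6% ± 0.934 in vehicle cells (SD, n = 3 each). The share of MCM7 was 32.1% ± 6.15 in inhibitor cells, 23.0% ± 1.62 in Wnt3a cells and 24.1% ± 1.33 in vehicle cells. The highest subunit exceeded the lowest 5.15-fold to 6.71-fold in inhibitor libraries, 2.92-fold to 3.29-fold in Wnt3a libraries and 2.66-fold to 2.92-fold in vehicle libraries. The lowest subunit was MCM6 in each inhibitor library and in vehicle replicates 2 and 3, and MCM2 in each Wnt3a library and in vehicle replicate 1.

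**Figure D2:**
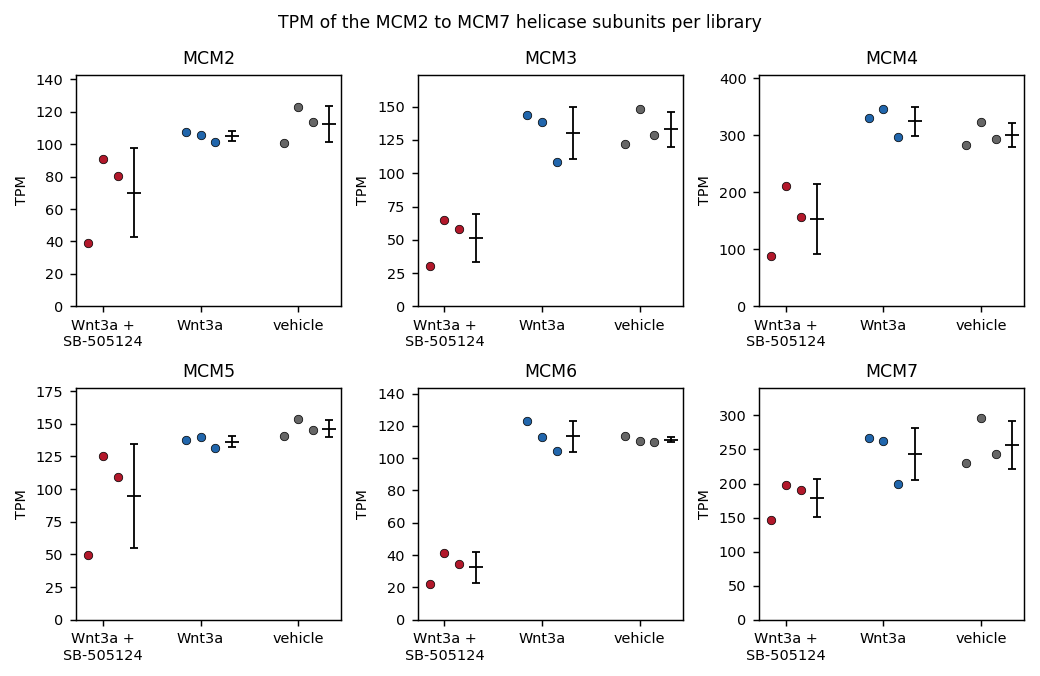
Level in TPM (y axis, from 0) of MCM2 to MCM7 in each library of the 3 groups, with the mean and SD of 3 beside the points. On this scale every inhibitor library lies below every Wnt3a and vehicle library for each subunit, widely for MCM3 and MCM6 and barely for MCM7, and inhibitor replicate 1 is the lowest of its group in each panel. The median of all genes is also lower on the TPM scale (log2 fold change -0.23 against Wnt3a with a pseudocount of 1).

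Of the 8 genes that turn the loaded ring into a helicase, 6 fell, 1 rose and 1 did not pass, and the median log2 fold change was -1.19. GINS2, a subunit of the GINS complex that completes the helicase, had 10.0, 16.7 and 12.0 CPM in inhibitor libraries, against 45.1, 39.7 and 35.1 CPM in Wnt3a libraries and 41.0, 50.3 and 38.5 CPM in vehicle libraries. The inhibitor libraries were far below all others, and GINS2 fell by 1.63 in log2 (SE 0.191, edgeR adjusted p = 9.58e-05). The other GINS subunits fell as well, GINS4 by 1.55, GINS1 by 1.18 and GINS3 by 0.94 in log2, with edgeR adjusted p-values of 3.11e-05, 3.65e-05 and 0.000378. GINS3 and GINS4 overlap opposite-strand genes by 558 and 1159 exonic bases. MCM10, which helps to fire the origin, fell by 1.38 in log2 (edgeR adjusted p = 0.000154). CDC45, the partner of GINS and the ring in the helicase, had 32.6, 52.1 and 43.5 CPM in inhibitor libraries, against 43.5, 40.9 and 29.7 CPM in Wnt3a libraries and 34.7, 47.9 and 35.0 CPM in vehicle libraries. These groups overlapped, and the log2 fold change was 0.17 (95% interval -0.29 to 0.62, and 0.34 without inhibitor replicate 1).

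CDC7, the kinase that phosphorylates the ring to start replication, had 9.83, 10.6 and 9.36 CPM in inhibitor libraries, against 24.6, 23.4 and 20.3 CPM in Wnt3a libraries and 20.6, 19.5 and 20.8 CPM in vehicle libraries. The level of CDC7 fell to 0.437 of that in Wnt3a cells (log2 fold change -1.20, SE 0.117, edgeR adjusted p = 3.24e-05), with no overlap. DBF4, the subunit that activates CDC7, had 47.1, 63.0 and 50.2 CPM in inhibitor libraries, against 40.3, 35.9 and 43.2 CPM in Wnt3a libraries and 43.9, 33.0 and 38.0 CPM in vehicle libraries. Every inhibitor library was above every other library, though replicates 1 and 3 by little. DBF4 rose by 0.43 in log2 (SE 0.143, edgeR adjusted p = 0.0302), and the call was lost with scaling by library totals (adjusted p = 0.266) and with an offset for transcript length (adjusted p = 0.0957), and on leaving out Wnt3a replicate 1 or 2 or inhibitor replicate 2, in 8 of 21 alternatives in all. DBF4 overlaps SLC25A40 on the opposite strand by 142 exonic bases and has a pseudogene, DBF4P1.

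Of the 7 polymerase and primase genes, 5 fell and 2 did not pass, with a median of -0.56. POLE2, the second subunit of the leading strand polymerase ε, had 4.78, 5.54 and 5.88 CPM in inhibitor libraries, against 19.3, 16.7 and 15.3 CPM in Wnt3a libraries and 17.1, 18.1 and 17.6 CPM in vehicle libraries. It had the smallest adjusted p of the 46 genes, fell by 1.66 in log2 (SE 0.138, edgeR adjusted p = 1.45e-05), and its inhibitor libraries were well below all others. POLE, the catalytic subunit of the same enzyme, had 83.1, 112 and 109 CPM in inhibitor libraries, against 143, 148 and 122 CPM in Wnt3a libraries and 113, 149 and 125 CPM in vehicle libraries. It fell by 0.44 in log2 (edgeR adjusted p = 0.0258), and its inhibitor libraries lay below the others by a narrow margin. The call was lost with the offset for transcript length (adjusted p = 0.117) and on leaving out Wnt3a replicate 1 or 2 or inhibitor replicate 1. POLA1 and POLA2, subunits of polymerase α, fell by 0.85 and 0.56 in log2, and POLD3, an accessory subunit of polymerase δ, by 0.78. POLA2 shares 2012 exonic bases with AP000944.2 on the same strand, so its count is uncertain. POLD1, the catalytic subunit of polymerase δ, had 37.7, 95.9 and 86.1 CPM in inhibitor libraries, against 68.2, 81.7 and 58.6 CPM in Wnt3a libraries and 65.1, 94.9 and 69.8 CPM in vehicle libraries. Inhibitor replicate 1 was below all others while replicates 2 and 3 were above the Wnt3a libraries, and the log2 fold change was 0.08 (95% interval -0.58 to 0.73, and 0.39 without inhibitor replicate 1). PRIM1, the catalytic subunit of primase, had 48.9, 56.9 and 51.0 CPM in inhibitor libraries, against 47.0, 41.8 and 45.98 CPM in Wnt3a libraries and 51.0, 46.8 and 47.9 CPM in vehicle libraries. The inhibitor libraries lay just above the Wnt3a libraries and overlapped the vehicle libraries, and the gene did not pass (log2 fold change 0.22, edgeR adjusted p = 0.0783).

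Among the 6 clamp and clamp loader genes, 2 fell, a share near the 25.9% of all genes, and 4 did not pass. PCNA, the sliding clamp that holds polymerases on DNA, had 126, 193 and 173 CPM in inhibitor libraries, against 272, 215 and 228 CPM in Wnt3a libraries and 256, 247 and 242 CPM in vehicle libraries. The inhibitor libraries were the lowest without overlap, and PCNA fell by 0.54 in log2 (SE 0.149, edgeR adjusted p = 0.0126). The call was lost without Wnt3a replicate 1, at an edgeR adjusted p of 0.0561, and PCNA has 3 annotated pseudogenes that could share reads with it. RFC5, a subunit of the loader RFC, had 40.7, 50.4 and 41.8 CPM in inhibitor libraries, against 49.5, 46.9 and 41.8 CPM in Wnt3a libraries and 42.2, 46.4 and 38.4 CPM in vehicle libraries. Its groups overlapped, with a log2 fold change of -0.06 (95% interval -0.32 to 0.21, and 0.01 without inhibitor replicate 1). On the TPM scale RFC5 passed as lower (-0.42, limma adjusted p = 0.0260 with a pseudocount of 1). RFC3 fell by 0.45 in log2 (edgeR adjusted p = 0.00659), a call that the offset for transcript length removed (adjusted p = 0.103), while RFC2, RFC4 and DSCC1, a subunit of an alternative loader, did not pass, at -0.07, 0.26 and 0.23. RFC2 was at 0.08 without inhibitor replicate 1 and passed as lower on the TPM scale (-0.47, limma adjusted p = 0.0486 with a pseudocount of 1). RFC4 passed as higher without Wnt3a replicate 1 (0.38, edgeR adjusted p = 0.0273).

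RPA1 and RPA2, which coat single-stranded DNA, did not pass. RPA1 had 95.1, 122 and 114 CPM in inhibitor libraries, against 135, 123 and 128 CPM in Wnt3a libraries and 124, 129.6 and 128 CPM in vehicle libraries. RPA2 had 85.4, 121 and 109 CPM in inhibitor libraries, against 106, 90.8 and 96.0 CPM in Wnt3a libraries and 103, 112 and 105 CPM in vehicle libraries. The inhibitor libraries of RPA1 lay just below the others and those of RPA2 overlapped them, with log2 fold changes of -0.22 (95% interval -0.45 to 0.0015, and -0.12 without inhibitor replicate 1) and 0.10 (95% interval -0.18 to 0.38, and 0.24 without inhibitor replicate 1). RPA1 passed as lower with library totals (edgeR adjusted p = 0.00204) and on the TPM scale.

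FEN1, the nuclease that removes the flaps of Okazaki fragments, was the replication gene that fell most. It had 23.0, 35.8 and 35.4 CPM in inhibitor libraries, against 136, 114 and 116 CPM in Wnt3a libraries and 123, 146 and 134 CPM in vehicle libraries. FEN1 fell to 0.257 of its level in Wnt3a cells (log2 fold change -1.96, SE 0.166, edgeR adjusted p = 1.56e-05), and the 3 inhibitor libraries were far below all others. FEN1 (ENSG00000168496.3) lies at 61792637 to 61797244 of chromosome 11, and 166 of its 2478 exonic bases overlap TMEM258 on the opposite strand and 49 overlap FADS2 on its own. LIG1, the ligase that seals the same fragments, had 95.4, 143 and 134 CPM in inhibitor libraries, against 111, 103 and 91.5 CPM in Wnt3a libraries and 107, 117 and 101 CPM in vehicle libraries. Inhibitor replicates 2 and 3 were above all others and replicate 1 was within the Wnt3a range. LIG1 did not pass with all libraries (log2 fold change 0.29, 95% interval -0.04 to 0.61), and passed as higher without inhibitor replicate 1 (edgeR adjusted p = 0.00542) and with the offset for transcript length (0.35, edgeR adjusted p = 0.0485). EXO1, an exonuclease of mismatch repair and strand resection, had 111, 159 and 145 CPM in inhibitor libraries, against 141, 122 and 139 CPM in Wnt3a libraries and 133, 121 and 133 CPM in vehicle libraries. Its groups overlapped (log2 fold change 0.05, 95% interval -0.24 to 0.34, and 0.19 without inhibitor replicate 1).

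Of the 4 genes of nucleotide supply, 1 rose, a share near the 24.5% of all genes, and 3 did not pass. RRM1, the large subunit of ribonucleotide reductase, had 247, 373 and 330.5 CPM in inhibitor libraries, against 248, 198 and 232 CPM in Wnt3a libraries and 223, 206 and 226 CPM in vehicle libraries. Inhibitor replicate 1 lay just under the highest Wnt3a library and the other inhibitor libraries were well above it. RRM1 rose by 0.49 in log2 (SE 0.146, edgeR adjusted p = 0.018), and the call was lost in 7 of 21 alternatives, library totals (adjusted p = 0.153) among them. RRM1 also lost its call without Wnt3a replicate 2, inhibitor replicate 2 or inhibitor replicate 3. RRM2, the small subunit that sets the activity of the enzyme in S phase, had 194, 305 and 308 CPM in inhibitor libraries, against 294, 246 and 339.5 CPM in Wnt3a libraries and 339, 273 and 339.7 CPM in vehicle libraries. Its groups overlapped and it did not pass (log2 fold change -0.12, 95% interval -0.53 to 0.29, and 0.07 without inhibitor replicate 1).

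TK1, the thymidine kinase of cycling cells, had 67.4, 122 and 125 CPM in inhibitor libraries, against 115, 103 and 101 CPM in Wnt3a libraries and 110.3, 154 and 113 CPM in vehicle libraries. The groups overlapped, with a log2 fold change of -0.02 (95% interval -0.50 to 0.46, and 0.22 without inhibitor replicate 1). TYMS, thymidylate synthase, had 191, 290.5 and 277 CPM in inhibitor libraries, against 233, 192 and 208 CPM in Wnt3a libraries and 222, 235 and 222 CPM in vehicle libraries. Inhibitor replicate 1 was below all Wnt3a libraries and the others above all libraries of both groups. TYMS did not pass with all libraries (edgeR adjusted p = 0.165) and passed as higher without inhibitor replicate 1 (edgeR adjusted p = 0.00416). TYMS overlaps 967 exonic bases of ENOSF1 on the opposite strand and has 2 annotated pseudogenes, so its count is uncertain.

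Of the 4 genes of chromatin and histone supply, 3 fell. UHRF1, which guides the maintenance DNA methyltransferase to newly copied DNA, had 25.6, 47.5 and 47.0 CPM in inhibitor libraries, against 164, 148 and 136 CPM in Wnt3a libraries and 153, 163 and 149.6 CPM in vehicle libraries. Every inhibitor library was below every other, and UHRF1 fell by 1.90 in log2 (SE 0.204, edgeR adjusted p = 5.78e-05). Without inhibitor replicate 1 its log2 fold change was -1.66. CHAF1A and CHAF1B are the large and middle subunits of the chromatin assembly factor that places histones behind the fork. CHAF1A had 52.4, 84.2 and 92.1 CPM in inhibitor libraries, against 76.0, 75.9 and 75.6 CPM in Wnt3a libraries and 77.5, 85.1 and 78.2 CPM in vehicle libraries. Its inhibitor libraries lay on either side of the narrow Wnt3a range (log2 fold change 0.01, 95% interval -0.37 to 0.39), while CHAF1B fell by 0.71 in log2 (edgeR adjusted p = 0.0014). SLBP, which binds the stem-loop of histone mRNA, fell by 0.43 in log2 (edgeR adjusted p = 0.00551). CLSPN encodes claspin, the adaptor of the replication checkpoint kinase, and had 9.75, 16.1 and 15.9 CPM in inhibitor libraries, against 46.04, 37.7 and 41.7 CPM in Wnt3a libraries and 40.1, 42.7 and 40.6 CPM in vehicle libraries. The inhibitor libraries were well below all others, and CLSPN fell to 0.333 of its Wnt3a level (log2 fold change -1.59, SE 0.176, edgeR adjusted p = 6.94e-05).

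**Figure D3:**
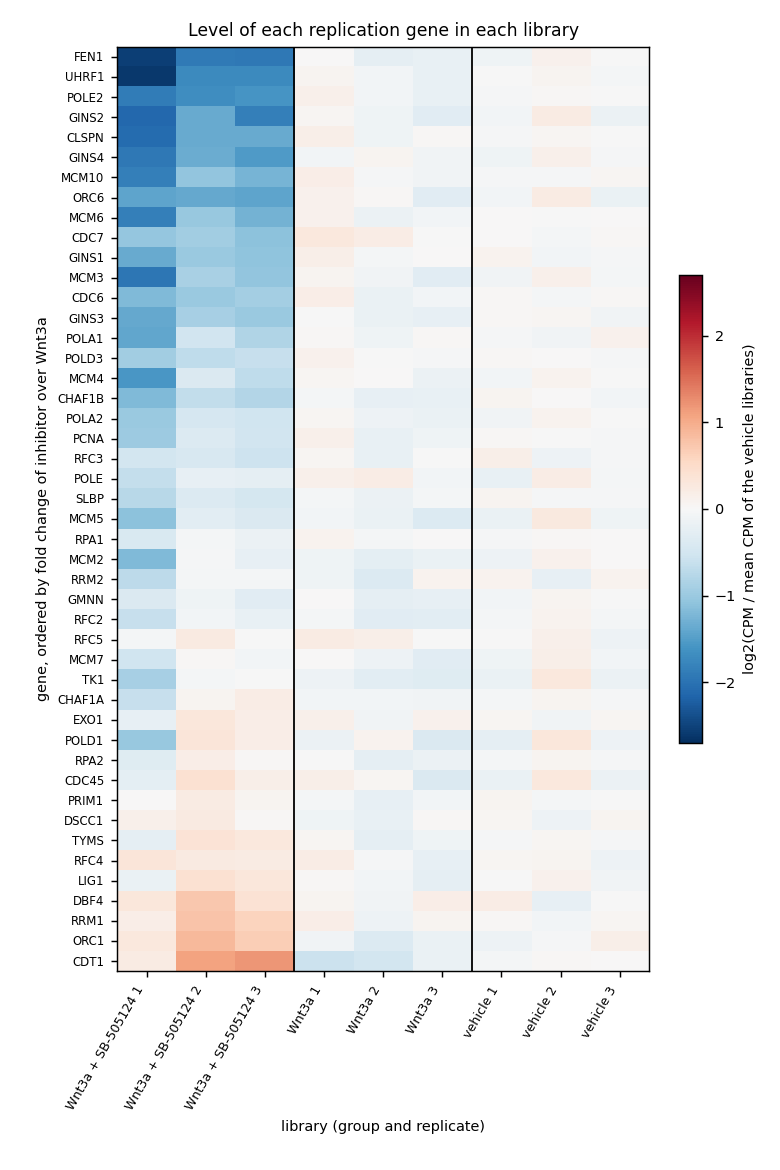
Each row is 1 replication gene and each column 1 library, and the colour is the log2 of its CPM over the mean CPM of the 3 vehicle libraries. The columns of the inhibitor libraries are blue from FEN1 at the top and red at the bottom (CDT1, ORC1, RRM1 and DBF4), inhibitor replicate 1 has the lowest level of its group for 42 of 46 genes, and the Wnt3a and vehicle columns are pale.

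The ratio of levels was computed for 12 pairs of genes with related roles. In all 12 the inhibitor libraries had a higher ratio than every Wnt3a library, in the order in which each pair was written, and in 11 a higher one than every vehicle library, the exception being POLD1 to POLD3. The Wnt3a and vehicle libraries overlapped in each pair. Ratios of TPM within a library do not depend on how libraries are scaled. The ratio of CDT1 to GMNN was 1.71, 2.90 and 3.66 in inhibitor libraries, against 0.768, 1.04 and 1.30 in Wnt3a libraries and 1.24, 1.29 and 1.197 in vehicle libraries. The ratio of DBF4 to CDC7 was 4.92, 5.39 and 6.85 in inhibitor libraries, against 1.91, 1.61 and 2.44 in Wnt3a libraries and 2.83, 1.55 and 1.89 in vehicle libraries. Each inhibitor library had a higher ratio than every other library in both pairs. The ratio of LIG1 to FEN1 was 3.58, 2.83 and 2.92 in inhibitor libraries, against 0.655, 0.665 and 0.576 in Wnt3a libraries and 0.638, 0.570 and 0.552 in vehicle libraries. FEN1 was the more abundant of these in every Wnt3a and vehicle library and LIG1 in every inhibitor library. The ratio of ORC1 to ORC6 was 1.77, 2.09 and 1.83 in inhibitor libraries, against 0.446, 0.368 and 0.525 in Wnt3a libraries and 0.486, 0.404 and 0.604 in vehicle libraries. That of PRIM1 to POLA1 was 11.4, 7.64 and 6.95 in inhibitor libraries, against 4.16, 3.93 and 4.25 in Wnt3a libraries and 5.10, 4.13 and 4.00 in vehicle libraries, and that of MCM7 to MCM6 was 6.71, 4.81 and 5.57 in inhibitor libraries, against 2.17, 2.32 and 1.90 in Wnt3a libraries and 2.03, 2.67 and 2.21 in vehicle libraries. The inhibitor libraries exceeded all others in these as well. The pairs and the order within them were chosen with the values known, so the counts of 12 and 11 follow from that choice and are no evidence. The share of all gene pairs that separate in this way was not computed. An exact permutation test of 3 against 3 libraries cannot give a 2-sided p under 0.1, and no p is given.

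**Figure D4:**
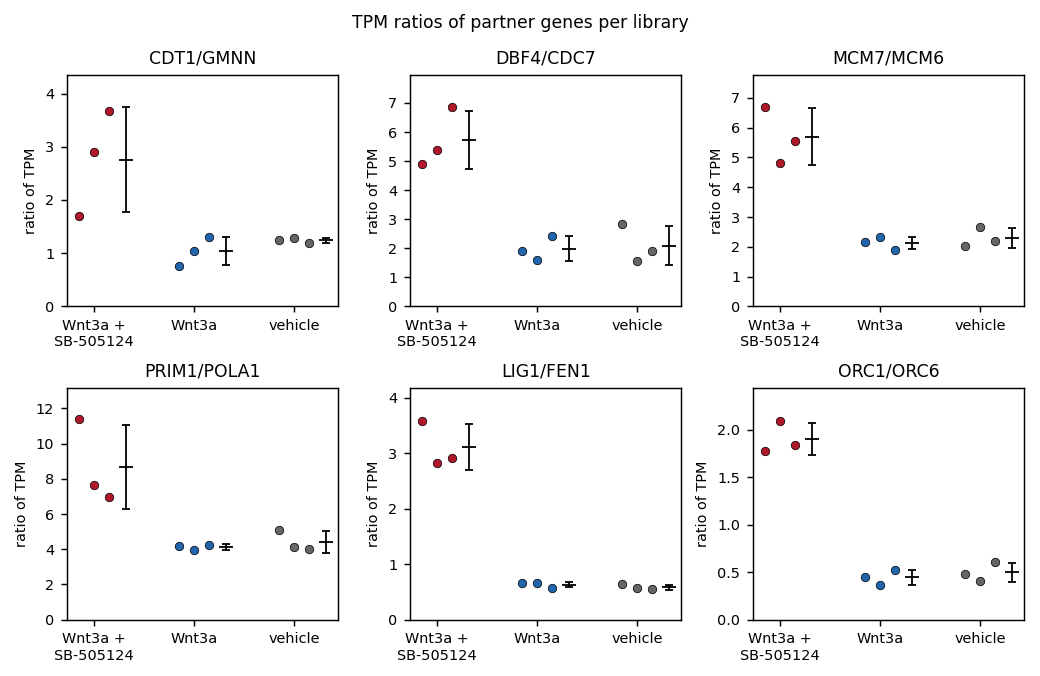
Ratio of the TPM of partner genes (y axis, from 0) in each library of the 3 groups, with the mean and SD of 3 beside the points. The 6 pairs plotted are those described in the text, and in each panel the inhibitor libraries lie above all Wnt3a and vehicle libraries, for example at 2.83 to 3.58 against at most 0.665 for LIG1 over FEN1.

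With Wnt3a alone, no change was detected in these genes. Against vehicle, 0 of 46 genes passed the edgeR test, where 0.419% of all genes tested passed (0.397% higher and 0.0224% lower), and 0 had an unadjusted p under 0.05, where 7.62% of all genes did. DESeq2 and limma-voom also called 0 of the 46. The log2 fold changes ran from -0.41 (CDT1) to 0.17 (CDC7), with a median of -0.07 over the 46 genes and 0.01 over all genes. The smallest edgeR adjusted p was 0.758, that of CDT1. The 95% interval of the CDT1 difference was -0.89 to 0.08, and that of FEN1 was -0.49 to 0.22 around -0.14. The ranges of Wnt3a and vehicle libraries did not overlap for CDT1, CHAF1A and SLBP, all lower with Wnt3a (6.52%, against 8.19% of all genes), and for 0 genes in the other direction (9.34% of all genes).

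Against vehicle, 23 of 46 genes fell in inhibitor cells (background 24.8%) and 4 rose (background 25.0%), with a median log2 fold change of -0.44 over the 46 genes and -0.04 over all genes. Without inhibitor replicate 1 there were 22 falls (25.2% of all genes) and 6 rises (24.9% of all genes), with medians of -0.28 over the 46 genes and -0.06 over all genes. The ranges did not overlap for 27 genes lower in inhibitor cells (58.7%, against 29.8% of all genes) and 5 higher (10.9%, against 28.5%). This comparison shares the inhibitor libraries with the one against Wnt3a, so their likeness is no independent evidence. FEN1 changed by -2.10 over vehicle and -1.96 over Wnt3a, POLE2 by -1.70 and -1.66, and CDC7 by -1.03 and -1.20. The 4 genes that rose were again CDT1, ORC1, RRM1 and DBF4, at 0.89, 0.63, 0.54 and 0.48. On the TPM scale none of these 4 rises over vehicle passed (limma adjusted p = 0.128 for CDT1 and 0.112 for ORC1 with a pseudocount of 1). MCM5 passed over vehicle (log2 fold change -0.55, SE 0.200, edgeR adjusted p = 0.0432), a call lost in 12 of 21 alternatives, and POLE did not (log2 fold change -0.35, SE 0.143, edgeR adjusted p = 0.0637).

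In TPM, the highest of the 46 genes in Wnt3a cells was MCM4 at 325 ± 25.7 (SD, n = 3), followed by TYMS at 278 ± 30.7 and PCNA at 278 ± 31.5, which do not differ beyond their spread. In inhibitor cells the highest was TYMS at 262 ± 52.6, then MCM7 at 178 ± 27.6, and MCM4 stood at 153 ± 61.5. The lowest were GINS4 at 4.36 ± 0.234 in inhibitor cells and DSCC1 at 10.9 ± 0.737 in Wnt3a cells and 10.9 ± 0.921 in vehicle cells.

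The authors' tables also give a transcript length per gene, which is the mean over its transcripts weighted by their abundance and so moves when the mix of transcripts moves. With SB-505124, 2 of the 46 genes, RRM2 and MCM3, had shorter transcripts than with Wnt3a alone (4.35%, against 2.34% of all genes). The other direction held 0 genes (0.391% of all genes), by limma on log2 length, a readout added after the data were seen. So small a count is near the share of all genes and is no result about the 46 genes as a set. The length of RRM2 was 1949, 1887 and 2020 bases in inhibitor libraries, against 2689, 2724 and 2435 bases in Wnt3a libraries and 2504, 2521 and 2450 bases in vehicle libraries. All inhibitor libraries were shorter than all others (log2 difference -0.42 over Wnt3a, limma adjusted p = 0.00895, and -0.35 over vehicle, limma adjusted p = 0.0176). The counts of RRM2 did not pass. It shares 1077 exonic bases with AC007240.1 on the same strand and has 3 annotated pseudogenes, so the length of RRM2 is uncertain. The length of MCM3 was 2631, 2636 and 2627 bases in inhibitor libraries, against 2900, 2792 and 2927 bases in Wnt3a libraries and 2885, 2784 and 2891 bases in vehicle libraries. Here too the inhibitor libraries were the shortest. MCM3 differed by -0.13 in log2 from Wnt3a (limma adjusted p = 0.0380) and missed the threshold against vehicle (limma adjusted p = 0.0506). Against vehicle RRM2 was thus the 1 gene with shorter transcripts (2.17%, against 2.28% of all genes), and 0 had longer ones (0.403% of all genes).

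**Figure D5:**
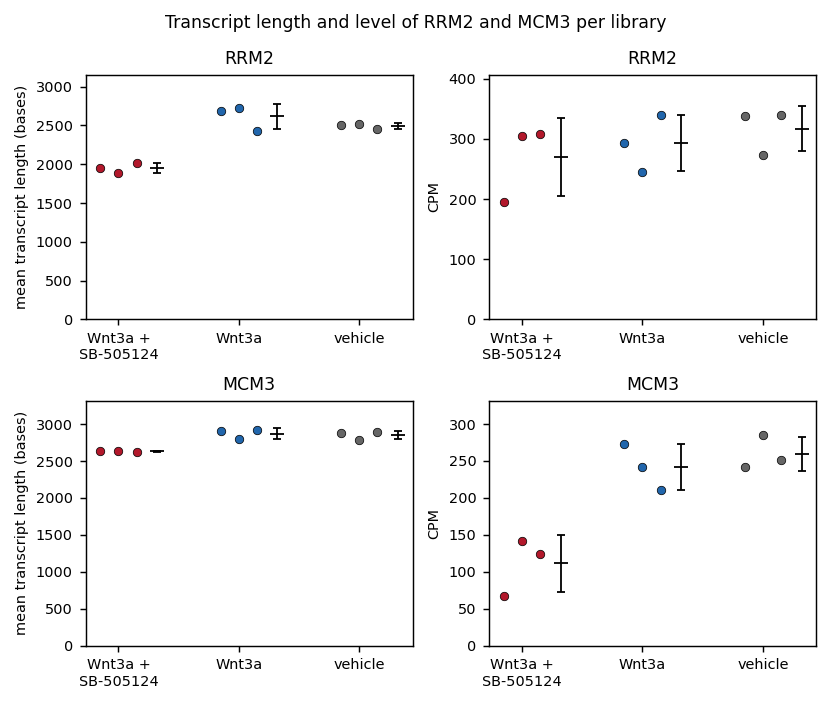
Transcript length in bases and level of RRM2 and MCM3 (y axes, from 0) in each library of the 3 groups, with the mean and SD of 3 beside the points. The inhibitor lengths of RRM2 average 1952 bases, below 2616 bases with Wnt3a and 2492 bases with vehicle.

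A further list of 41 replication genes, all tested, held changes in both directions. With SB-505124, 14 of them fell against Wnt3a (34.1%, background 25.9%) and 7 rose (17.1%, background 24.5%), with a median log2 fold change of -0.14. The largest falls were those of CHTF8, a subunit of an alternative clamp loader (-2.90 in log2), the histone chaperone ASF1B (-1.30), the chromatin remodeller HELLS (-1.16) and MCM8, a helicase of recombination (-1.08). The largest rises were those of RRM2B, the p53-inducible small subunit of ribonucleotide reductase (1.45), ORC3 (0.86), the primase subunit PRIM2 (0.78) and the large clamp loader subunit RFC1 (0.71), with edgeR adjusted p-values of at most 0.00181 for these 8. RRM2B had 81.6, 112 and 101 CPM in inhibitor libraries, against 31.4, 32.3 and 44.7 CPM in Wnt3a libraries and 38.4, 23.6 and 36.7 CPM in vehicle libraries. Every inhibitor library was above every other, while RRM2 did not pass. Exons of CHTF8 overlap HAS3 on the opposite strand by 365 bases. Against vehicle, 16 of the 41 fell (39.0%, background 24.8%) and 6 rose (14.6%, background 25.0%) in inhibitor cells, and 0 passed between Wnt3a and vehicle cells (background 0.419%).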

How the data were processed

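Polyadenylated RNA of TC32 cells was sequenced from stranded libraries. Per the submitters' processing notes, the authors' tools were STAR 2.5.2a and RSEM 1.2.31 with Trimmomatic 0.36 and CASAVA 1.8.2, and the build was hg38. Neither annotation release nor strand setting is given in the sources used here. The deposited tables hold, per the file headers, an expected count per gene, in which RSEM shares out reads that fit several genes, with TPM and transcript lengths in bases.

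Rows with the same gene ID (45) were added, and expected counts were rounded. Genes kept by filterByExpr (17880) were fitted in 1 model of 3 groups with TMM scaling and the quasi-likelihood test of edgeR 4.0.16 (R 4.3.3), 2-sided, with Benjamini-Hochberg adjustment over all genes tested and a threshold of 0.05. Values in CPM are TMM-scaled. The SE is the log2 fold change divided by the square root of F. DESeq2 1.42.0, limma 3.58.1, other scalings, filters and units, a length offset and leaving out each library were alternatives. Replicate pairs differed by more than sampling noise. Coordinates and overlaps come from GENCODE release 29 (hg38), which held 57895 of the 58233 IDs when versions were ignored.

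The 46 genes, the further 41, roles, pairs and motifs were chosen with earlier results of these data known. Values per library are given, by rule, for the genes with the largest and smallest change in each role, for MCM2 to MCM7 and for the 4 rises. CDC6, CDC7, GMNN, LIG1, POLE, PRIM1, RRM2, RRM2B and TYMS were added after their values were seen.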

Additional observations from a re-analysis of the deposited data

How the results depend on the processing

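Over 21 alternatives, 21 of the 27 calls of inhibitor against Wnt3a held in every one, as did 21 of the 27 against vehicle. No called gene changed direction, and 0 of 46 genes passed for Wnt3a against vehicle in any. The genes that did not pass were less settled. Only 8 of 19 stayed uncalled in every alternative against Wnt3a, and 9 of 19 against vehicle. Against Wnt3a there were 4 rises with TMM (24.5% of all genes rose), and 2 with library totals (15.8%), with log2(TPM + 1) (12.8%), with log2(TPM + 0.1) (12.6%) and at an adjusted p under 0.01 (17.9%). Against vehicle there were 4 with TMM (25.0% of all genes rose), 2 with library totals (17.1%), 0 with log2(TPM + 1) and 0 with log2(TPM + 0.1) (15.2% in each), and 2 at an adjusted p under 0.01 (18.5%). Falls against Wnt3a were 23 with TMM (25.9% of all genes), 26 with library totals (35.9%) and 28 with log2(TPM + 1) (35.5%). They were 28 with log2(TPM + 0.1) (36.2%), 21 with the length offset (22.1%) and 20 at an adjusted p under 0.01 (17.4%). The median log2 fold change against Wnt3a was -0.65 with library totals, -0.67 with log2(TPM + 1) and -0.68 with log2(TPM + 0.1), against -0.39 with TMM, where the medians of all genes were -0.31, -0.23, -0.34 and -0.06. Library totals moved the median of all genes by -0.25, and the 46 genes stayed 0.34 below it, as given above. Why the medians differ on the TPM scale was not tested. Leaving out 1 library gave 2 to 8 rises and 20 to 23 falls against Wnt3a (medians -0.49 to -0.22). Of all genes, 20.1% to 25.1% then rose and 20.4% to 27.0% fell. There were 2 rises without Wnt3a replicate 2 (20.1% of all genes) or inhibitor replicate 2 (20.1%) and 8 without inhibitor replicate 1 (25.1%). Against vehicle, leaving out 1 library gave 3 to 6 rises and 22 to 24 falls (medians -0.56 to -0.28). Of all genes, 20.8% to 24.9% then rose and 20.1% to 25.2% fell. Same-numbered libraries did not deviate together in every pair (correlations -0.18 to 0.42). Libraries of different number were not compared in this way, so whether the numbers pair some of the libraries stays unknown. With the replicate number as a block there were 5 rises (25.0% of all genes) and 23 falls (26.2%) against Wnt3a (median -0.41). Against vehicle there were 5 rises (25.4% of all genes) and 24 falls (25.2%) with the block (median -0.46). Between Wnt3a and vehicle there were 0 (0.431% of all genes higher and 0.0112% lower, median -0.07). The lowest count of a replication gene in any library was 126, so counting error was small.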
